A study of Mus musculus with 20 samples.

Results

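Macrophages lacking inducible nitric oxide synthase (iNOS) were compared with wildtype macrophages before any stimulation. The comparison took 6 of the 20 libraries of the series, 3 labelled wildtype and 3 labelled iNOS KO, all unstimulated, and its members were the 18691 genes, of 56748 in the count table, whose counts summed to at least 10 across the 12 iNOS experiment libraries. The other 6 libraries of that experiment came from the same genotypes after 48 h with 50 ng/mL lipopolysaccharide (LPS) and 30 ng/mL interferon-γ (IFNγ), and the remaining libraries from the RAW264.7 macrophage-like line with and without Akr1a1. The labels call the cells of the 12 iNOS experiment libraries bone marrow-derived macrophages (BMDM), grown in 20 ng/mL macrophage colony-stimulating factor (M-CSF). They give the source as C57BL/6J mice of either genotype aged 6 to 12 weeks, males or females.

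The study's methods give the knockout mice as B6.129P2-Nos2tm1Lau/J, a line whose targeted allele came from stem cells of another strain, and state that marrow was pooled by genotype. The same methods place the iNOS RNA-seq in RAW264.7 cells and not in BMDM, so the identity of the cells is not settled by the sources. For RAW264.7 cells the methods give an iNOS KO line made as in earlier work. In either case, loss of iNOS cannot be told apart from other differences between the wildtype and iNOS KO mice or lines. The study calls its replicates biological, but the sources do not say whether the 3 libraries of a group came from separate cultures or animals, and p-values here measure only the spread between these libraries, which may be technical.

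iNOS, encoded by Nos2, makes nitric oxide (NO•) from L-arginine. Resting macrophages are known to carry little of it, and microbial products together with IFNγ induce it strongly, so the comparison at rest asks what differs between the genotypes where little NO• is made. NO• inhibits mitochondrial respiration and modifies protein thiols, and M-CSF keeps macrophages in a state rich in lysosomes, phagocytic receptors and lipid-handling genes.

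Total counts were 15072109 to 17500955 in the wildtype and 17150386 to 17346579 in the iNOS KO libraries, and levels are given as CPM, counts scaled to a common library size and corrected for library composition. On the 6 libraries, the axis of largest variance held 66.1% of the variance and separated the genotypes, with wildtype libraries at -12.7 to -7.57 and iNOS KO libraries at 8.14 to 12.0. Ribosomal RNA took 1.65% to 2.39% of the wildtype and 2.34% to 2.68% of the iNOS KO counts, and mitochondrial transcripts 1.66% to 1.89% and 1.70% to 1.86%. The part of the ribosomal RNA share in any result was not tested.

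Both genotypes carried transcripts of macrophages and of proliferating cells. Lyz2, which encodes lysozyme, stood at 3234 to 5318 CPM over the 6 libraries, and Mki67, a proliferation marker, at 489 to 569 CPM in wildtype and 522 to 648 CPM in iNOS KO libraries. In the unstimulated wildtype RAW264.7 libraries Mki67 stood at 1238 to 1372 CPM. The study describes its BMDM as non-proliferating in either genotype, stimulated or not. For its RAW264.7 cells it reports that NO• made after stimulation inhibits proliferation. After LPS/IFNγ, 43 of 43 mitosis genes were higher in iNOS KO than in wildtype libraries here (adjusted p under 0.05, edgeR, median log2 fold change 4.78). The same held for 45 of 46 DNA replication genes (median 3.32). Which cells the libraries came from was not tested. Some genes that macrophages grown from marrow can carry were absent or nearly so: H2-Aa, C1qa and C1qb had 0 counts in all 6 libraries, and Mertk did not exceed 0.352 CPM. Pycard, the inflammasome adaptor that the RAW264.7 line is known to lack, was at 0 to 0.293 CPM here and at 0.145 to 0.322 CPM in the unstimulated wildtype RAW264.7 libraries. The Y-linked Ddx3y stood at 40.0 to 55.1 CPM here and at 0 in those RAW264.7 libraries. Xist, a transcript of female cells, did not exceed 0.111 CPM here and 0.0726 CPM there. What the sex-linked genes say about the source of the cells was not tested. Markers of some other cell types were low. Summed lymphocyte markers reached 0.748 CPM with 10 of 17 at 0, including Cd3e and Pax5, and summed fibroblast and endothelial markers reached 1.88 CPM with 5 of 13 at 0. Summed dendritic cell markers were higher, at 51.4 to 58.1 CPM in wildtype and 49.9 to 52.3 CPM in iNOS KO libraries. Summed osteoclast markers were 971 to 1015 CPM in wildtype and 1200 to 1250 CPM in iNOS KO libraries. Summed neutrophil markers were 4.84 to 6.05 CPM in wildtype and 1.95 to 2.34 CPM in iNOS KO libraries with 6 of 16 at 0, including Ly6g. The granulocyte colony-stimulating factor receptor gene Csf3r was the neutrophil marker that fell (-1.67 ± 0.25), and the part of these markers in other results was not tested.

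Nos2 was transcribed at a low level in wildtype and was not detected in iNOS KO libraries. It gave 1.25, 1.45 and 1.53 CPM in the wildtype libraries and 0 counts in each iNOS KO library, which is at least 9.58-fold lower when 3 counts per library are taken as the limit that a count of 0 allows (adjusted p = 5.03e-08, edgeR quasi-likelihood test with Benjamini-Hochberg adjustment over all genes tested, here and below). Nos2 lies on chromosome 11 at 78811613 to 78851080 as the table lists it, and since the table names no build and its start positions mostly differ from those of the GRCm38 annotation, no sequence was read at these positions.

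The genotypes differed at rest in many genes by small amounts. Of the 18691 genes, 1117 (5.98%) differed at an adjusted p under 0.05, and these are called changed below, of which 352 (1.88%) rose and 765 (4.09%) fell without iNOS. The median absolute log2 fold change of the changed genes was 0.55, and 807 of them differed by 1 or less. With a limit of 1 on the absolute log2 fold change as well, 310 genes (1.66%) passed, 122 (0.653%) higher and 188 (1.01%) lower, and 284 of the 310 were protein-coding. Among the 8870 genes with a mean log2 CPM over 3, 8.25% were changed (2.13% higher, 6.12% lower) and 40 (0.451%) passed the larger limit, 17 higher (0.192%) and 23 lower (0.259%), so 270 of the 310 genes were of low abundance. The libraries of the groups did not overlap for 5438 genes (29.1%), and a gap between the groups is to be read beside that share.

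Decreases outnumbered increases in each fit, and the size of that balance depended on which libraries entered it. Of the changed genes 68.5% were lower in iNOS KO cells with all 12 libraries, while the 6 unstimulated libraries alone gave 2671 changed genes, 1274 higher and 1397 lower, or 52.3% lower. The genes past the larger limit moved less, with 384 in that fit, 304 of them shared. Leaving out wildtype replicate C gave 685 changed genes and leaving out iNOS KO replicate A gave 739.

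**Figure D1:**
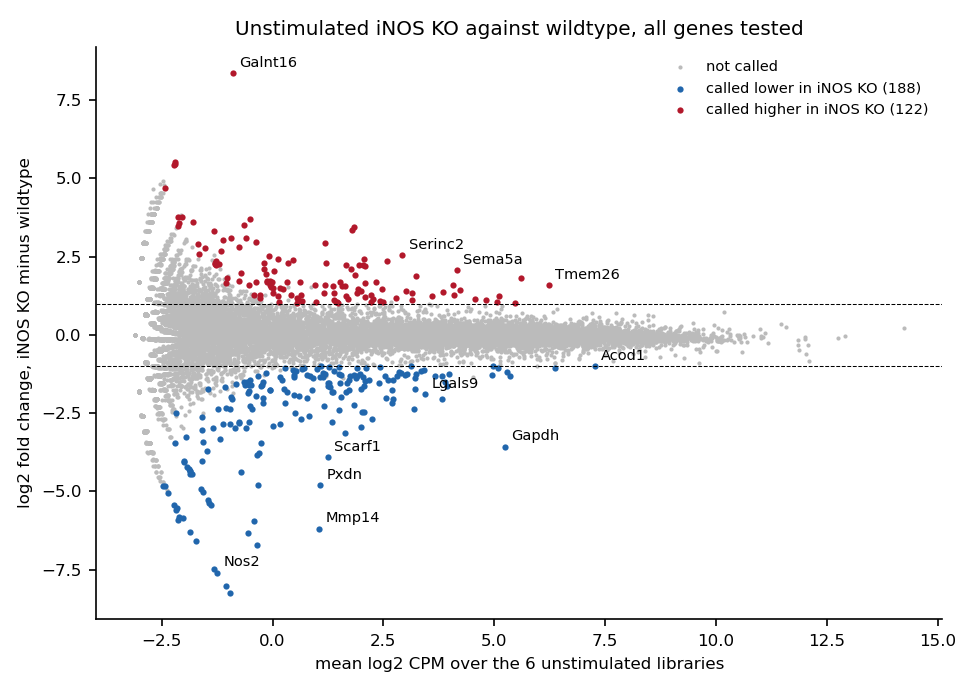
Log2 fold change of unstimulated iNOS KO over wildtype cells (vertical axis) against the mean log2 CPM of the 6 unstimulated libraries (horizontal axis), 1 point per gene tested. Coloured points are the genes past both limits, 122 higher and 188 lower, most of them to the left of a mean log2 CPM of 3.

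Among well-expressed protein-coding genes, those with a mean log2 CPM over 3, 12 increases were followed by library. Sema5a, a transmembrane semaphorin, stood at 9.07, 8.73 and 8.22 CPM in wildtype against 34.3, 36.4 and 37.8 CPM in iNOS KO libraries (log2 fold change 2.06 ± 0.11 SE, adjusted p = 3.7e-09). Angptl2, a secreted angiopoietin-like protein, rose from 24.8 to 26.5 CPM to 87.5 to 93.1 CPM (1.81 ± 0.09). The rule that named the 12 genes required groups that do not overlap. The membrane protein gene Tmem26 (1.59 ± 0.08), the G protein regulator Rgs16 (1.43 ± 0.11), the folate enzyme gene Aldh1l1 (1.42 ± 0.15), the secreted phospholipase Pla2g5 (1.27 ± 0.09), the tetraspanin Cd81 (1.25 ± 0.09) and the Rac activator Tiam2 (1.25 ± 0.12) also rose, as did Arhgef40 (1.88 ± 0.12), Zfp469 (1.61 ± 0.12), Ankdd1a (1.36 ± 0.11) and Gpr179 (1.35 ± 0.14). The non-coding Gm17749 beside Ankdd1a rose by 1.13 ± 0.08, and the reads of overlapping or neighbouring genes cannot be told apart here because the strand setting of the counting is not given in the sources used here. Serinc2, which encodes a serine incorporator family member, had the smallest p among the increases, with 2.79, 2.78 and 3.70 CPM in wildtype and 18.2, 17.9 and 18.2 CPM in iNOS KO libraries (2.55 ± 0.12, adjusted p = 1.23e-09).

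The decrease with the smallest p was that of Mmp14, the membrane-bound matrix metalloproteinase that cleaves collagen and activates other proteases. It stood at 14.8, 15.3 and 14.3 CPM in wildtype against 0.0481, 0.249 and 0.293 CPM in iNOS KO libraries, and no other gene tested had a smaller p (log2 fold change -6.19 ± 0.24, adjusted p = 3.33e-10). The ratio of its 816 wildtype to 12 iNOS KO counts was 75.7, with an exact 95% interval of 43.1 to 147 that covers counting error only. Pxdn, a matrix peroxidase, followed at 9.57 to 9.95 CPM in wildtype and 0.241 to 0.498 CPM in iNOS KO libraries (-4.81 ± 0.21). Tent5c, a poly(A) polymerase gene, fell by 2.94 ± 0.13 and Acod1, the enzyme that makes itaconate, fell from 221, 215 and 216 CPM to 107, 112 and 105 CPM (-1.01 ± 0.05, adjusted p = 2.95e-09). Each of these losses was seen in every library of the group.

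Some transcripts were present in one genotype and close to absent in the other. Ctdspl, a small C-terminal domain phosphatase gene, had 4.06 to 4.34 CPM in wildtype and 2 counts in all iNOS KO libraries (ratio 128, exact 95% interval 35.1 to 1064). Adgrl2, an adhesion receptor, had 176 counts against 2 (98.0, 26.7 to 816), Prr5, a component of mTOR complex 2, had 189 against 3 (70.2, 23.6 to 343), and the neuropeptide gene Npy had 161 against 6 (29.9, 13.4 to 82.7). Btg3, an antiproliferative gene, had 1.78 to 2.49 CPM in wildtype and 0 counts in iNOS KO libraries. The reverse case was Galnt16, an enzyme of O-linked glycosylation, with 0 counts in wildtype and 2.36, 2.99 and 1.85 CPM in iNOS KO libraries, at least 14.6-fold higher.

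Among the better expressed decreases were Prkar2b, a regulatory subunit of protein kinase A, at 19.4, 21.2 and 20.7 CPM in wildtype and 3.37, 4.18 and 4.24 CPM in iNOS KO libraries (-2.38 ± 0.15), and Hal, histidine ammonia-lyase, which fell by 2.04 ± 0.12. The chromatin gene Nsd1 (-1.74 ± 0.16), Tbc1d9 (-1.63 ± 0.09), the clotting protein gene Vwf (-1.50 ± 0.10), Clec7a (-1.36 ± 0.18), Chchd10 (-1.33 ± 0.13), C3 (-1.32 ± 0.09) and Gas6 (-1.31 ± 0.09) fell as well. Their groups were apart because the rule that named them required it. Gapdh, the glycolytic enzyme gene, met the same limits but is uncertain: its counts were 234, 28.1 and 202 CPM in wildtype and 12.1 to 14.3 CPM in iNOS KO libraries (-3.58 ± 0.96, adjusted p = 0.0363). Gapdh has many near-identical copies in the genome, and the adjusted p was 0.129 without wildtype replicate A, 0.109 without wildtype replicate C and 0.117 to 0.144 without an iNOS KO library.

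**Figure D2:**
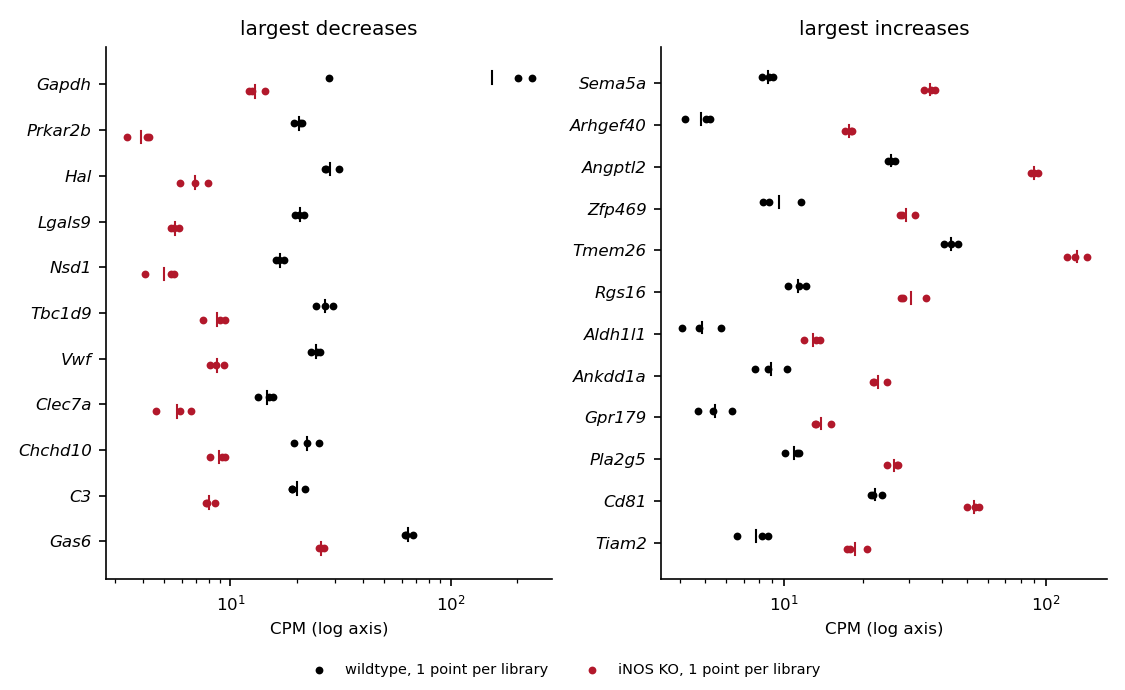
Level in CPM (log axis) of the well-expressed protein-coding genes that rose or fell most in unstimulated iNOS KO cells, 1 point per library and a line at the mean of 3 libraries. Wildtype and iNOS KO points are apart for each gene because only such genes were eligible, and the wildtype points of Gapdh spread from 28.1 to 234 CPM.

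Genes beside Nos2 were counted because a targeted allele, which the knockout mice have, carries the chromosome around it. Whether these cells came from those mice or from an edited line is not settled. Within 10 Mb of Nos2, 391 genes were tested, of which 30 (7.67%) were changed and 7 (1.79%) passed the larger limit, beside 5.98% and 1.66% over all genes. Lgals9, which encodes galectin-9, lies next to Nos2 at 78853800 to 78875772 on chromosome 11, 2720 bases away. It stood at 20.5, 19.6 and 21.7 CPM in wildtype against 5.54, 5.37 and 5.81 CPM in iNOS KO libraries (-1.88 ± 0.10, adjusted p = 3.7e-09). The others were the chemokine gene Ccl5 (1.35 ± 0.20), the serotonin transporter gene Slc6a4 (3.52 ± 0.42), Wfdc17 (-2.28 ± 0.15), Scarf1 (-3.91 ± 0.27), Ypel2 (-2.36 ± 0.37) and Adap2 (-1.61 ± 0.43). Within 5 Mb the share past the larger limit was 3.26% of 184 genes and within 20 Mb 2.12% of 660 genes. By chromosome it ran from 0.937% on chromosome 5 to 2.45% on chromosome X. The call of Adap2 was lost without wildtype replicate A or C or iNOS KO replicate A or C, and counts without 1 library were 6 to 7.

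Most macrophage identity genes tested fell in iNOS KO cells. Of 18 tested members of a marker list, 11 fell and 1 rose (66.7% changed, beside 5.98% of all genes and 8.25% of well-expressed genes), with a median log2 fold change of -0.45 beside -0.01 over all genes tested. Their summed level was 12451 to 12974 CPM in wildtype and 8576 to 9135 CPM in iNOS KO libraries. A large part of this sum was Lyz2 alone, at 4907 to 5318 CPM in wildtype and 3234 to 3432 CPM in iNOS KO libraries. Adgre1, which encodes the F4/80 antigen, fell from 105, 101 and 104 CPM to 64.4, 65.4 and 61.3 CPM (-0.70 ± 0.06, adjusted p = 5.09e-07). The M-CSF receptor gene Csf1r stood at 930 to 997 CPM in wildtype and 654 to 669 CPM in iNOS KO libraries (-0.53 ± 0.07), the pore-forming Mpeg1 fell by 0.74 ± 0.06, and Cd68 fell by 0.33 ± 0.06. The lysozyme genes Lyz1 (-0.90 ± 0.06) and Lyz2 (-0.62 ± 0.06) fell as well and may share reads. The groups of all these genes were apart. Spi1, the lineage factor PU.1, did not pass the test (456 to 490 CPM in wildtype, 403 to 431 CPM in iNOS KO libraries, adjusted p = 0.0875), nor did Itgam, Cd14, Ptprc, Tlr4 or Mertk. The exception in direction was Cx3cr1, the fractalkine receptor, which rose from 14.5 to 16.7 CPM to 34.3 to 35.8 CPM (1.15 ± 0.09). In bulk libraries fewer cells of a type and less RNA per cell cannot be told apart.

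Transcription factors of the macrophage lineage moved in both directions. Of 46 tested, 16 fell and 3 rose (41.3% changed, beside 5.98% of all genes and 8.25% of well-expressed genes), with a median of -0.20. Maf, a basic leucine zipper factor of macrophages, had 39 wildtype counts against 1 (ratio 43.4, exact 95% interval 7.35 to 1759). Bhlhe41, a repressor found in tissue macrophages, fell from 41.6 to 47.6 CPM to 20.8 to 24.1 CPM (adjusted p = 2.7e-07), Id2 fell by 0.77 ± 0.11, the AP-1 gene Jun by 0.63 ± 0.10 and Irf8 by 0.47 ± 0.08. Cebpb fell from 217 to 253 CPM to 169 to 197 CPM (-0.39 ± 0.08). The members that rose were Egr3 (0.69 ± 0.09), the AP-1 gene Fosl2 (0.62 ± 0.08) and Myc (0.52 ± 0.08), with Fosl2 at 227 to 232 CPM in wildtype and 344 to 367 CPM in iNOS KO libraries. The count of members that fell was 9 without wildtype replicate A, 8 without wildtype replicate C, 8 without iNOS KO replicate A and 9 without iNOS KO replicate C.

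Osteoclast genes did not move as a set. Nfatc1, the master regulator of osteoclasts, rose from 272 to 288 CPM to 427 to 461 CPM (0.63 ± 0.07, adjusted p = 1.71e-05), and Dcstamp, needed for cell fusion, rose by 0.36 ± 0.08. In contrast Itgb3 (-1.72 ± 0.29) and Oscar (-1.33 ± 0.27) fell, and Acp5 and Ctsk did not pass the test (-0.03 ± 0.09 and -0.13 ± 0.06). Of 11 markers 4 rose and 3 fell (63.6% changed, beside 5.98% of all genes), with 1 to 3 rising when a library was left out and the lowest counts without wildtype replicate B or C or iNOS KO replicate A or B.

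Lysosomal genes fell together by modest amounts. Of 42 tested genes of lysosomal hydrolases, membrane proteins and the proton pump, 21 fell and 1 rose, with a median of -0.25. This is 50.0% lower, where 6.12% of genes with a mean log2 CPM over 3 were lower. Among the hydrolases, Ctsd stood at 1841, 1783 and 1920.0 CPM in wildtype against 1207, 1349 and 1257 CPM in iNOS KO libraries (-0.54 ± 0.07, adjusted p = 6.07e-05). Ctsb fell by 0.47 ± 0.06, Ctsc by 0.70 ± 0.07, Ctse by 1.63 ± 0.16 and Ctss, which trims the MHC class II invariant chain, by 0.45 ± 0.06. Psap, the precursor of the saposins, fell from 1204 to 1277 CPM to 835 to 901 CPM (-0.51 ± 0.06). Gpnmb, a lysosomal glycoprotein, fell by 0.82 ± 0.06. Among membrane proteins Lamp1 fell (-0.31 ± 0.06) and Lamp2 did not pass the test (-0.05 ± 0.10). In the V-ATPase, the proton pump, Atp6v0a1 fell by 0.55 ± 0.07, while Atp6v0d2, the subunit used by osteoclasts, was the member that rose (0.39 ± 0.10). With 1 library left out, 18 to 21 members fell. Lysosomal genes are known targets of the transcription factors TFEB and TFE3. Tfeb did not pass the test (0.00 ± 0.11), and Tfe3 was lower (-0.28 ± 0.08, adjusted p = 0.0357).

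The letters of the CLEAR element, the TFEB and TFE3 site, were searched as TCACGTGA on both strands in the 250 bases before the RefSeq start of each gene. This motif was picked after the values were seen. It was found in 4 of 17 lysosomal genes that fell and that had a window (23.5%), in 3 of 14 that did not (21.4%) and in 1.12% of 27025 windows of all genes. The window of Ctsd, the protease described above, is printed to show the match in capitals, on the minus strand of GRCm38.p6 at chr7:142387828-142388077, 91 bases before the start.
Ctsd: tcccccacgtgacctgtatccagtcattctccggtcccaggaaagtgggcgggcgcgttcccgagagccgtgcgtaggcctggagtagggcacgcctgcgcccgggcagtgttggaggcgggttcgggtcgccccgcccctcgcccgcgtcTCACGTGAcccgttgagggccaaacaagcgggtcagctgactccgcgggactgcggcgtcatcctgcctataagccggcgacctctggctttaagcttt

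Part of the integrated stress response and unfolded protein response genes fell in iNOS KO cells. The integrated stress response acts through the transcription factor ATF4, which raises amino acid transport and synthesis and further factors. Of 34 tested genes of this response and of the unfolded protein response, 15 fell and 0 rose by edgeR, or 44.1% beside 4.09% lower over all genes and 6.12% over the well-expressed, with a median of -0.20. At an unadjusted p under 0.05, 1 member was higher, and 0 rose by DESeq2. Atf3 stood at 118, 118 and 121 CPM in wildtype against 60.0, 54.2 and 55.8 CPM in iNOS KO libraries (-1.07 ± 0.07, adjusted p = 7.45e-08). The pseudokinase gene Trib3 fell from 17.2 to 19.6 CPM to 9.10 to 10.8 CPM (-0.93 ± 0.11), and Chac1, which degrades glutathione, from 10.9 to 12.1 CPM to 6.02 to 6.79 CPM (-0.84 ± 0.12). The groups of the 3 genes were apart. Slc3a2, the heavy chain partner of the cystine transporter Slc7a11, fell by 0.47 ± 0.06, asparagine synthetase Asns by 0.43 ± 0.07 and Atf4 itself by 0.25 ± 0.06. Herpud1 and Xbp1, which belong to the endoplasmic reticulum arm, fell too (-0.35 and -0.24), while its chaperone genes Hspa5 (0.00 ± 0.05) and Hsp90b1 (0.10 ± 0.15), picked after their values were seen, did not pass the test. The count of members that fell was 8 without wildtype replicate B or C, 9 without iNOS KO replicate A and 7 without iNOS KO replicate C.

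**Figure D3:**
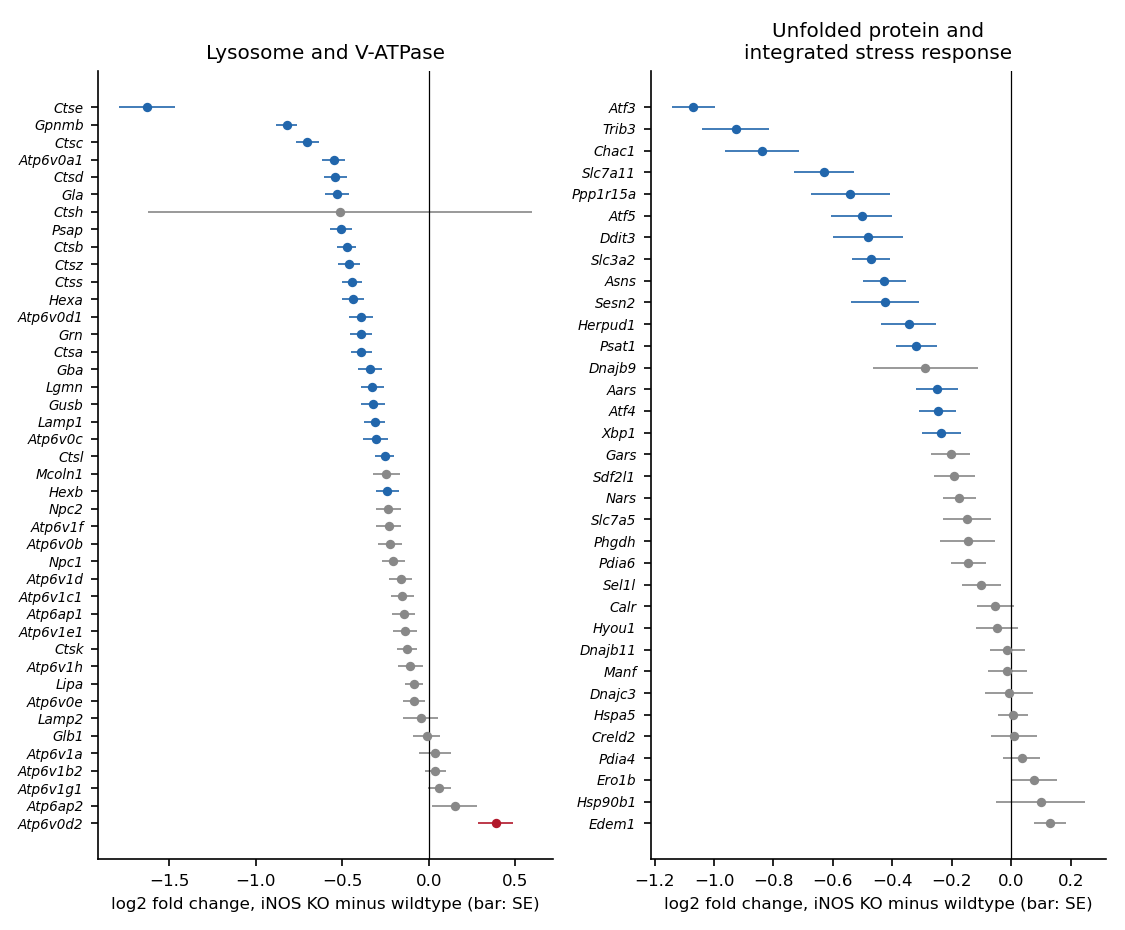
Log2 fold change of unstimulated iNOS KO over wildtype cells for each tested member of the lysosome and V-ATPase list and of the unfolded protein and integrated stress response list, with bars of 1 SE. The 21 lysosomal and 15 stress response members with an adjusted p under 0.05 lie to the left of 0, and Atp6v0d2 lies to the right.

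The site that ATF4 and its partners bind, the C/EBP-ATF response element, was searched as TGATGNAA on both strands in the same windows, also after the values were seen. It was present in 7 of 15 members that fell (46.7%), in 1 of 15 that did not (6.67%) and in 4.51% of all windows. The windows of 4 members that fell are printed because they carry the matches, in capitals, and they come from RefSeq, build GRCm38.p6. Atf3 is at chr1:191183334-191183583 on the minus strand with a match 102 bases before the start, Chac1 at chr2:119350992-119351241 on the plus strand with a match 185 bases before it, Slc7a11 at chr3:50443614-50443863 on the minus strand with matches 58 and 39 bases before it, and Asns at chr6:7693210-7693459 on the minus strand with a match 15 bases before it.
Atf3: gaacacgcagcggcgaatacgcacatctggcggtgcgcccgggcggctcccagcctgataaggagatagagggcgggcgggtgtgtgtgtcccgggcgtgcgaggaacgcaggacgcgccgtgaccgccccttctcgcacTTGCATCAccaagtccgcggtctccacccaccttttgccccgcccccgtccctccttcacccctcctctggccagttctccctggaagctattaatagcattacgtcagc
Chac1: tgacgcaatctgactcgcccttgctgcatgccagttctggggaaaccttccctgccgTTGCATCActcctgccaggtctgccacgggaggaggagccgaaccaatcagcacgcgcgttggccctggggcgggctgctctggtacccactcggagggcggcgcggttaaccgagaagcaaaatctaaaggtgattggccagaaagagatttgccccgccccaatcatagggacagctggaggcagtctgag
Slc7a11: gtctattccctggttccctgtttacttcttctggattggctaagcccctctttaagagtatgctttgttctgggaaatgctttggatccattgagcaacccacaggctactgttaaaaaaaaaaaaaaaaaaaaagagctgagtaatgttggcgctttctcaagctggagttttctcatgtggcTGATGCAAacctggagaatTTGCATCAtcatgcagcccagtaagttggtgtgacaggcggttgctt
Asns: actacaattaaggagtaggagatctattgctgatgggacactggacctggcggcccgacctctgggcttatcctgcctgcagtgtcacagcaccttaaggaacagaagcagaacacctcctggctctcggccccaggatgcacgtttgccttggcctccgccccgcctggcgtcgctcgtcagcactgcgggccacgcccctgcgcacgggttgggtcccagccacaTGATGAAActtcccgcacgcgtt
A match is a description of the letters in the window, and binding was not measured. Of 31 tested targets of the transcription factor NRF2, 7 fell and 1 rose, with a median of -0.09. This is 25.8% changed, beside 5.98% of all genes and 8.25% of well-expressed genes. Nfe2l2, which encodes NRF2, was among those that fell. With 1 library left out, 6 to 7 targets fell. The antioxidant response element of NRF2, TGACNNNGC, was in 2 of 7 NRF2 targets that fell (28.6%). It was in 8 of 19 with a window that did not fall (42.1%) and in 3781 of all 27025 windows.

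Some of the receptors by which macrophages take up particles, and their ligands, fell in iNOS KO cells. Of 25 tested scavenger and clearance genes 9 fell and 1 rose (40.0% changed, beside 5.98% of all genes), with a median of -0.33, and of 19 Fc and complement genes 8 fell and 0 rose by edgeR (42.1%), with a median of -0.25, and 0 were higher at an unadjusted p under 0.05 or by DESeq2. The mannose receptor gene Mrc1 fell from 3.39, 4.56 and 4.05 CPM to 0.819, 0.498 and 0.634 CPM (-2.60 ± 0.31). Clec7a, the β-glucan receptor dectin-1, stood at 14.9, 15.7 and 13.3 CPM in wildtype against 5.87, 6.62 and 4.59 CPM in iNOS KO libraries. Gas6, the ligand that bridges dying cells to TAM receptors, fell from 62.0 to 67.3 CPM to 25.2 to 26.5 CPM. The Fcγ receptor genes Fcgr3 (-0.82 ± 0.10), Fcgr1 (-0.79 ± 0.12) and Fcgr2b (-0.50 ± 0.09) fell together with C3. Msr1, Cd36 and Trem2 did not pass the test (-0.04 ± 0.10, -0.20 ± 0.19 and -0.17 ± 0.06). The inhibitory receptor gene Sirpa, whose product restrains phagocytosis, fell as well, from 667 to 690 CPM to 418 to 450 CPM (-0.64 ± 0.06).

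Of 9 genes of the phagocyte NADPH oxidase, which makes superoxide, 4 fell and 0 rose by edgeR (44.4%, beside 4.09% of all genes lower), with 0 higher at an unadjusted p under 0.05 or by DESeq2, and 2 fell without wildtype replicate C or iNOS KO replicate A. Cybb, the catalytic subunit, stood at 534, 573 and 531 CPM in wildtype against 326, 339 and 327 CPM in iNOS KO libraries (-0.72 ± 0.10, adjusted p = 0.000158), and the proton channel gene Hvcn1 fell by 1.31 ± 0.22. Of 8 tested genes of the Ms4a family of membrane proteins 4 fell (50.0%), led by Ms4a7 at 1.74 to 2.58 CPM in wildtype and 0.0963 to 0.348 CPM in iNOS KO libraries (-3.46 ± 0.30), and Ms4a6d fell by 0.85 ± 0.07. Members of the Ms4a6 group are similar in sequence and may share reads.

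Arginine and NO• genes changed besides Nos2. Slc7a2, an inducible arginine transporter, stood at 0.847, 1.39 and 1.29 CPM in wildtype against 0.144, 0.199 and 0.146 CPM in iNOS KO libraries (-2.78 ± 0.35, adjusted p = 6.54e-05). Of 26 genes of arginine and NO• metabolism 4 fell, Nos2 among them, and 1 rose (19.2% changed, beside 5.98% of all genes), and 2 fell without wildtype replicate C or iNOS KO replicate A. The citrulline-recycling enzyme gene Ass1 (-0.87 ± 0.22) and Arg2 (-0.82 ± 0.19) did not hold in every set of libraries: the calls of both were lost without wildtype replicate C or iNOS KO replicate A.

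**Figure D4:**
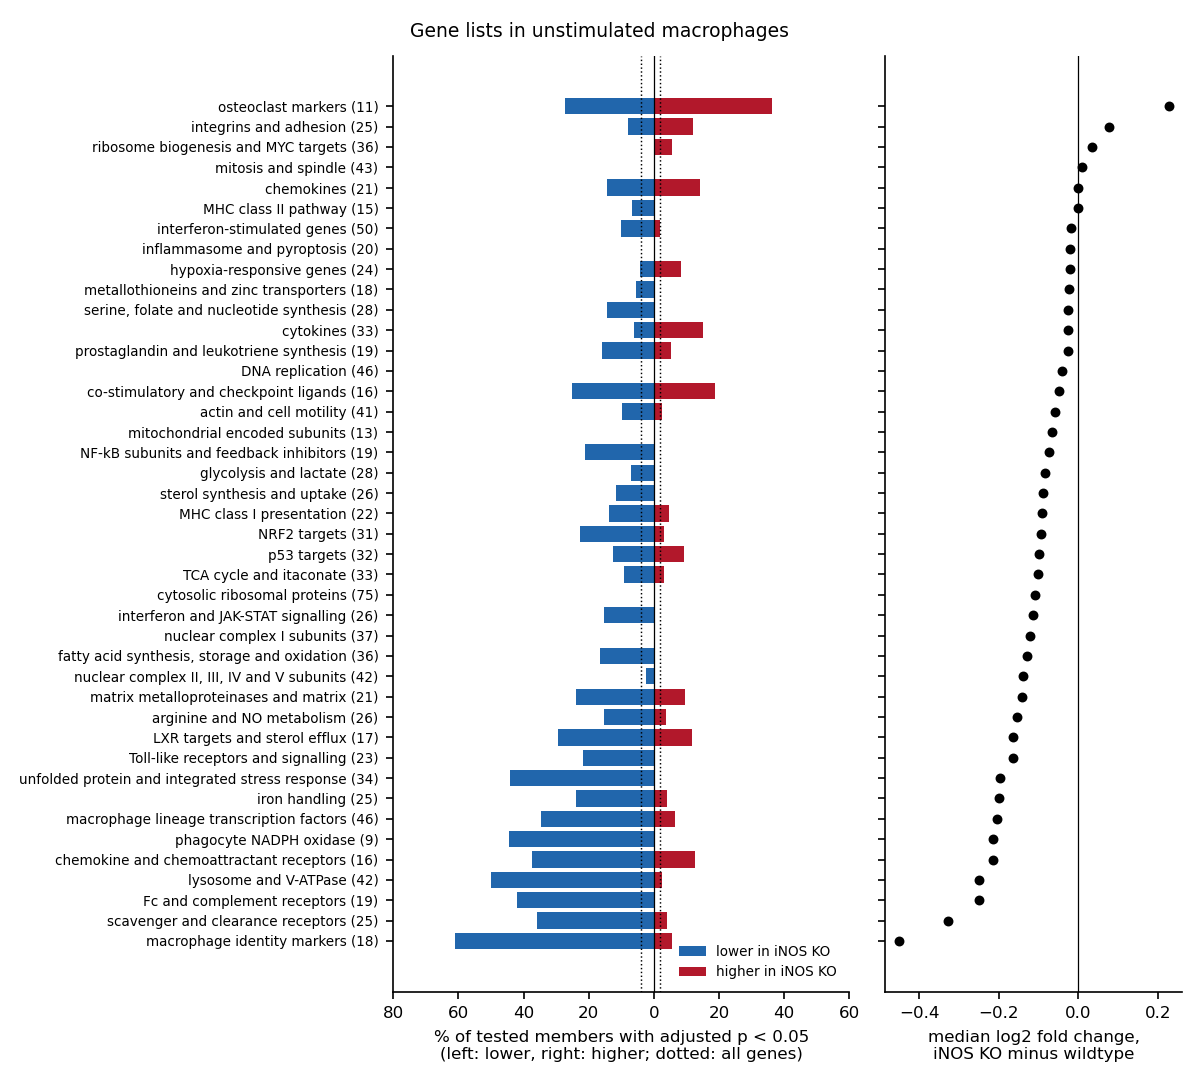
Percent of tested members with an adjusted p under 0.05, lower to the left and higher to the right, with the dotted lines at 4.09% and 1.88% of all genes, and the median log2 fold change of each list. The lysosome, macrophage identity and stress response lists have the bars that reach farthest to the left among lists of more than 15 genes.

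Inflammatory receptors, ligands and signalling genes differed in both directions. Of 33 tested cytokine genes 5 rose and 2 fell (21.2% changed, beside 5.98% of all genes), with a median of -0.03. Il10, an anti-inflammatory cytokine, rose from 1.94, 2.17 and 2.00 CPM to 3.37, 3.83 and 3.85 CPM (0.85 ± 0.14), Pdgfa rose by 0.80 ± 0.10 and Lif by 0.81 ± 0.16. Il1rn, the interleukin-1 receptor antagonist, fell by 0.43 ± 0.06. Tnf (-0.20 ± 0.09) and Il1b (-1.27 ± 0.44) did not pass the test. The count of cytokines that rose was 3 without wildtype replicate A or B.

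Of 21 chemokine genes 3 rose and 3 fell (28.6% changed, beside 5.98% of all genes here and for the lists below). Cxcl14 stood at 14.71, 14.73 and 13.97 CPM in wildtype against 5.63, 5.37 and 7.27 CPM in iNOS KO libraries (-1.25 ± 0.16), and the neutrophil attractant Cxcl2 fell from 111 to 132 CPM to 65.3 to 76.6 CPM (-0.80 ± 0.07). Among receptors, Ccrl2, an atypical receptor, fell by 2.47 ± 0.13 and Cxcr4 by 1.53 ± 0.17. Of 16 such receptors 6 fell and 2 rose (50.0% changed), with 3 to 5 falling when a library was left out and the lowest counts without iNOS KO replicate A or C. Of 16 co-stimulatory and checkpoint genes 4 fell and 3 rose (43.8% changed), among them Lgals9 and Sirpa, which fell, and Tnfrsf9, a co-stimulatory receptor, which rose from 1.10 to 1.82 CPM to 2.78 to 3.83 CPM (1.35 ± 0.22). With any 1 library left out 1 of these rose, and 2 fell without wildtype replicate C or iNOS KO replicate A.

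Of 23 tested genes of Toll-like receptors and their signalling 5 fell (21.7%, beside 4.09% of all genes lower). Among them were the receptor genes Tlr13 (-0.59 ± 0.12) and Tlr2 (-0.32 ± 0.08) and the signalling list member Ly86 (-0.56 ± 0.09). Tlr4, the LPS receptor, did not pass the test (0.06 ± 0.19). With 1 library left out 2 to 4 fell, the lowest counts without wildtype replicate A or C or iNOS KO replicate A. Interferon-stimulated genes had a median near that of all genes, with 5 of 50 lower and 1 higher (12.0% changed, beside 5.98% of all genes) and a median of -0.02. Ifi44 fell from 9.12, 12.6 and 10.8 CPM to 4.43, 3.93 and 4.64 CPM (-1.32 ± 0.20), and Trim30a by 1.01 ± 0.18 and Usp18 by 0.73 ± 0.14. The interferon-stimulated response element was in the windows of 20 of 37 of these genes and in 3.99% of all windows.

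Lipid-handling genes included several falls. Of 36 genes of fatty acid metabolism 6 fell and 0 rose by edgeR (16.7%, beside 4.09% of all genes lower), with 0 higher at an unadjusted p under 0.05 or by DESeq2. Fabp4, a lipid chaperone of macrophages and fat cells, stood at 13.2, 14.1 and 12.0 CPM in wildtype against 2.70, 3.73 and 3.03 CPM in iNOS KO libraries (-2.05 ± 0.14, adjusted p = 6.72e-08). Its relatives Fabp5 (-0.73 ± 0.07) and Fabp3 (-0.63 ± 0.12) and the lipid droplet gene Plin2 (-0.44 ± 0.07) fell as well. Cholesterol export genes fell too, with Abca1 at 83.7 to 87.2 CPM in wildtype and 48.4 to 50.7 CPM in iNOS KO libraries (-0.79 ± 0.10) and Abcg1 lower by a log2 fold change of -0.55 ± 0.07. Pltp, the phospholipid transfer protein gene and like them a target of the LXR receptors, rose from 20.4, 22.1 and 26.4 CPM to 42.9, 51.8 and 49.1 CPM (1.06 ± 0.11). Of 17 LXR targets 5 fell and 2 rose (41.2% changed, beside 5.98% of all genes).

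Of 25 iron-handling genes 6 fell and 1 rose (28.0% changed, beside 5.98% of all genes), and 3 to 5 fell without 1 library, with the lowest counts without wildtype replicate A or C or iNOS KO replicate A. The ferritin chains Fth1 and Ftl1 were lower (-0.31 ± 0.05 and -0.31 ± 0.08), with Fth1 at 4687 to 4824 CPM in wildtype and 3791 to 3912 CPM in iNOS KO libraries. Slc11a1, the phagosomal metal transporter that limits intracellular bacteria, fell from 217, 217 and 226 CPM to 153, 162 and 158 CPM (-0.48 ± 0.07). Matrix genes included Mmp14 and Mmp12, the macrophage elastase, which fell from 12.6 to 14.1 CPM to 2.78 to 3.27 CPM (-2.16 ± 0.13). Timp2, an inhibitor of metalloproteinases, fell by 1.25 ± 0.12, and the plasminogen activator gene Plau (0.33 ± 0.06) rose. Of 21 matrix genes tested 5 fell and 2 rose (33.3% changed).

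Other lists held changed genes as well. Of 25 integrin and adhesion genes 3 rose and 2 fell (20.0% changed, beside 5.98% of all genes), with the αv integrin gene Itgav at 192, 197 and 200.2 CPM in wildtype against 286, 274 and 285 CPM in iNOS KO libraries (0.52 ± 0.10). Of 12 tested markers of alternative activation 3 fell and 1 rose (33.3% changed). The member that rose was the vascular endothelial growth factor receptor gene Flt1, from 1.35 to 2.05 CPM to 7.66 to 8.61 CPM (2.24 ± 0.17). Shares near that of the 8.25% of well-expressed genes changed were found for 41 actin and motility genes (12.2%, 4 lower and 1 higher), 33 genes of the TCA cycle and itaconate (12.1%, 3 lower and 1 higher) and 28 glycolysis genes (7.14%). The glycolysis genes that fell were Gapdh and the sugar transporter gene Slc2a6 (-0.64 ± 0.08). Of 19 NF-kB genes 4 fell (21.1%, beside 4.09% of all genes lower), led by Nfkbiz (-0.64 ± 0.10). With 1 library left out 2 to 3 fell, the lowest counts without wildtype replicate C or iNOS KO replicate C.

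Proliferation, translation and respiration genes showed few or no changes by edgeR. None of 46 DNA replication genes changed, with 1 at an unadjusted p under 0.05 and 0 by DESeq2. None of 43 mitosis genes changed, with 0 at an unadjusted p under 0.05 and 0 by DESeq2. For 75 cytosolic ribosomal protein genes the count was 0, with 1 higher and 15 lower at an unadjusted p under 0.05 and 1 by DESeq2. For 37 nuclear complex I subunits it was 0, with 9 lower at an unadjusted p under 0.05 and 0 by DESeq2, and for 13 mitochondrial encoded subunits 0, with 1 lower and 0 by DESeq2. Of 42 nuclear subunits of complexes II to V, 1 fell, with 0 higher and 16 lower at an unadjusted p under 0.05 and 1 lower by DESeq2. In the fit of the 6 unstimulated libraries alone these counts were 2 higher for DNA replication, 7 higher for mitosis, 3 higher and 27 lower for ribosomal proteins, 4 lower for complex I, 2 higher for mitochondrial encoded subunits and 13 lower for complexes II to V. Small differences mostly had the same sign in 3 of these lists. With all 12 libraries the log2 fold change was negative for 41 of the 42 subunits of complexes II to V (median -0.14). It was negative for 32 of 37 complex I subunits (median -0.12) and 66 of 75 ribosomal protein genes (median -0.11). The median of all well-expressed genes was -0.04. A missing call therefore does not show that these genes were equal. On simulated data for this comparison, 64.7% of genes changed by a log2 fold change of 0.5 were recovered and 100% of those changed by 1 or 2. The changed genes of the simulation were drawn only from genes with higher counts, and none changed by less than 0.5. The recovered shares therefore do not cover genes with few counts or smaller differences.

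Reactome pathways were described by the median of their tested genes. Of 670 pathways, 138 held no changed member. The lowest medians were -0.25 for 3 overlapping sets of potassium and calcium channel control, each of 18 genes in which Gng2, Gng12 and Gng5, γ subunits of G proteins, fell, and -0.20 for a set of transforming growth factor β receptor signalling in which Tgfbr2, Smurf1 and Rhoa fell. The highest were 0.31 for cytochrome P450 enzymes, in which Cyp2s1 rose (0.90) and Cyp4f39 fell (-0.80 ± 0.19), and 0.17 for the clotting cascade, in which Tfpi, an inhibitor of clotting, rose from 0.598 to 1.501 CPM to 10.003 to 13.8 CPM (3.46 ± 0.28) while Vwf fell.

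Genes that differed at rest were followed in the 6 stimulated libraries, which share no library with the comparison at rest. Both comparisons came from the same fit and share its dispersion estimates. Other differences between the wildtype and iNOS KO mice or lines may be present in both states, and their part was not tested. After LPS/IFNγ 3655 genes (19.6%) passed the larger limit, 10.7% higher and 8.87% lower. Of the 188 genes lower at rest, 102 (54.3%) were lower after stimulation, 13 were higher and 73 passed in neither direction. The 102 were 6.16% of the genes lower after stimulation. Of the 122 genes higher at rest, 84 (68.9%) were higher after stimulation, which is 4.20% of the genes higher then, 6 were lower and 32 passed in neither direction. The difference between genotypes itself differed between rest and stimulation for 135 of the 310 genes at an adjusted p under 0.05, and for 35.4% of all genes tested. The median log2 fold change of the genes lower at rest was -1.84 at rest and -1.62 after stimulation, and of the genes higher at rest 1.69 and 2.06.

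**Figure D5:**
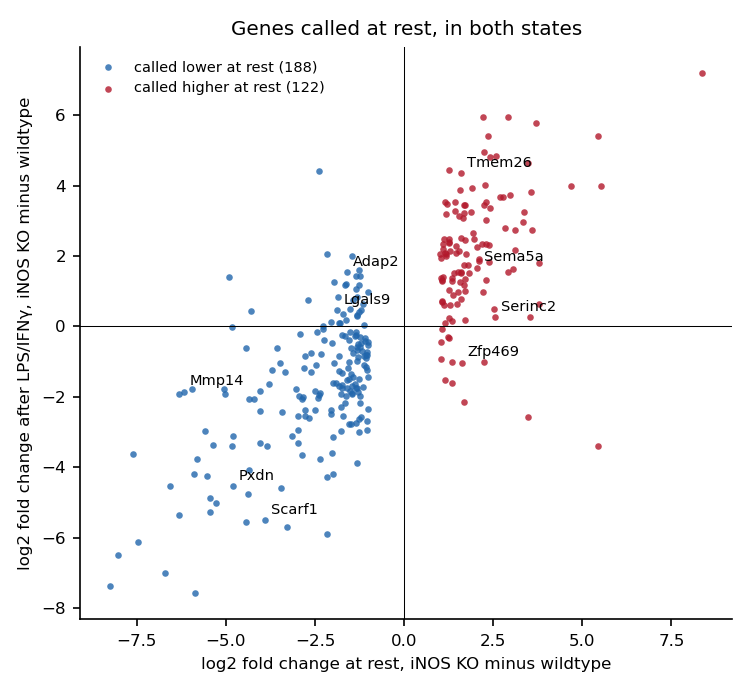
Log2 fold change of iNOS KO over wildtype after LPS/IFNγ (vertical axis) against that at rest (horizontal axis) for the 310 genes past the larger limit at rest, coloured by direction at rest. Of the genes lower at rest 155 of 188 lie below 0 after stimulation, and of the genes higher at rest 109 of 122 lie above 0.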

How the data were processed

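Poly(A)-enriched RNA of the iNOS experiment was sequenced and counted by the authors, and the deposited values are raw read counts per gene, not normalized, that were made, per the submitters' processing notes, with CASAVA, STAR and the mm10 build. The annotation, the strand setting and the counter's options are not given in the sources used here. Counts of all 12 libraries (4 groups of 3) were fitted in R 4.3.3 with edgeR 4.0.16 (TMM, quasi-likelihood F test, 2-sided, 1 mean per group, no covariates) after a minimum of 10 counts in total, with Benjamini-Hochberg adjustment over 18691 genes. CPM used TMM-scaled library sizes, mean log2 CPM a prior count of 2, and SE was derived from the F statistic. As in the study, genes had to reach an adjusted p under 0.05 and differ by more than 1 on the log2 scale. The pipeline was tested on simulated counts.

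Genes were named by rule: Nos2, the 12 protein-coding genes with the largest change each way among those past both limits, apart between groups and with a mean log2 CPM over 3, the 5 smallest p, genes with 3 counts or fewer in each library of one group and at least 30 in each of the other, up to 4 changed members per list, up to 3 per named Reactome pathway, markers, and genes within 10 Mb of Nos2. Some genes that the rule names are not reported here. List members that did not pass the test, further changed list members (such as Adgre1, Ctsd, Asns and Tfpi) and the 2 response elements were picked after their values were seen. The members and the 53 lists were chosen with earlier results of these data known. Replicates of a group differed beyond counting noise (chi-square per degree of freedom 2.65 to 5.87). Separate preparations of the same sample can differ in this way too, so technical repeats are not excluded. Deviations of libraries sharing a replicate letter were not alike (correlations -0.15, -0.40 and -0.04), so letters were not used as pairs. DESeq2 1.42.0, other size factors, other filters, the unstimulated libraries alone, other fold limits, a replicate block and leaving out each library were tried. RAW264.7 libraries entered only the check of the cells and 1 closing observation. Promoter windows were taken from RefSeq (GRCm38.p6) by gene symbol, with 30 of 34 stress response and 31 of 42 lysosomal genes matched.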

Additional observations from a re-analysis of the deposited data

Results flagged for a closer look

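The difference between genotypes was compared between rest and stimulation for 42 genes named by size, smallest p, presence in only 1 genotype or position near Nos2. For 27 of them, beside 35.4% of all genes tested, it differed at an adjusted p under 0.05 (edgeR interaction term, the log2 fold change after LPS/IFNγ minus that at rest). Most of the 42 were chosen for their effect at rest, which enters this term, so the count is a description. For 5 genes the direction turned, with an adjusted p under 0.05 both times: Lgals9 (interaction 2.35, from -1.88 at rest to 0.47 after stimulation), C3 (1.63, from -1.32 to 0.31), Adap2 (3.15, from -1.61 to 1.54), Zfp469 (-2.64, from 1.61 to -1.03) and Ccl5 (-2.36, from 1.35 to -1.003).

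For genes higher in iNOS KO cells at rest, the difference grew with stimulation for Tmem26 (interaction 2.76), Aldh1l1 (2.11), Rgs16 (1.84), Arhgef40 (1.38), Pla2g5 (1.20), Cd81 (1.14) and Tiam2 (1.13). It shrank for Slc6a4 (-3.25), Serinc2 (-2.30), Gm17749 (-0.53) and Ankdd1a (-0.47). For genes lower at rest, the difference grew for Scarf1 (-1.58), Clec7a (-1.37), Vwf (-1.28), Gas6 (-0.57) and Tbc1d9 (-0.34). It shrank for Mmp14 (4.34), Wfdc17 (2.30), Tent5c (0.96), Chchd10 (0.66) and Acod1 (0.49). The interaction term of Nos2 was 3.96, but its fold at rest is known only as a lower bound, so whether the difference grew or shrank cannot be told. Values of other genes at or near 0 counts in 1 group, such as Mmp14 and Slc6a4, depend on the prior count and are not bounds.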

How the results depend on the processing

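The numbers of genes past both limits at rest (310, 122 higher and 188 lower) were 281 by DESeq2, 308 with its size factors, 295 with edgeR's filterByExpr, 370 without a filter, 285 among protein-coding genes and 384 with the 6 unstimulated libraries alone. Without a filter 585 genes were higher at an adjusted p under 0.05 in place of 352, and the 6 unstimulated libraries alone gave 2671 changed genes (1274 higher, 1397 lower). A fold limit of 0.5 on the log2 scale gave 620 genes (240 higher, 380 lower), a limit of 2 gave 134 (47 and 87), and a 20 Mb window around Nos2 held 14. With 1 library left out, 685 to 842 genes were changed (230 to 261 higher, 455 to 585 lower) and 256 to 276 passed both limits (95 to 107 higher, 161 to 169 lower). The lower counts were 8 to 14 for lineage transcription factors, 7 to 11 for the stress response, 18 to 21 for the lysosome and 10 to 11 for identity genes, the window held 6 to 7 genes, 155 to 169 genes were past both limits in the same direction after stimulation and 114 to 125 had a differing effect. Fewer libraries entered these fits. The changed lower genes numbered 478 without iNOS KO replicate A and 493 without iNOS KO replicate C.

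The replicate block, which treats libraries with the same letter as pairs, gave 302 genes past both limits (115 higher, 187 lower, 295 of them shared) and 1054 changed genes, and the letters did not pair the samples. Of 164 named genes followed, 116 kept their direction and their side of the threshold under all alternatives run, 48 lost the call under at least 1 of them, and 0 reversed. At these depths a gene with a few counts per library was tested only for large differences.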

Other observations

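The genes that differed at rest were looked up in the stimulation response of the wildtype RAW264.7 libraries, 2 unstimulated against 2 stimulated, which share no library with the comparison at rest. This look-up was chosen after the data were seen. Of 17398 genes tested in both, 12.9% were induced and 13.7% repressed by LPS/IFNγ in edgeR (adjusted p under 0.05, by more than 1 on the log2 scale). Of 138 genes lower in resting iNOS KO cells, 44 (31.9%) were induced and 29 (21.0%) repressed, and of 105 genes higher in resting iNOS KO cells, 22 (21.0%) were induced and 17 (16.2%) repressed. The title of 1 of the unstimulated libraries conflicts with its treatment label, which was followed here.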
